A study of Mus musculus with 16 samples.

Results

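The endothelial marker genes described here are Pecam1, Cdh5, Kdr, Flt1, Tek, Tie1, Eng, Emcn, Aplnr and Cd34, 10 of the 11710 genes in the count table of an RNA sequencing study of mouse rotator cuff muscle. They were chosen by name as genes known to mark blood vessel endothelium, with earlier results of these data known, and each of the 10 was found in the table and passed the filter on low counts. The study crossed 2 inbred strains, C57BL/6J (BL6) and MRL/MpJ (MRL), with surgery. Operated animals had the tendon of the muscle removed and the muscle denervated, and unoperated animals of the same strain were the controls. Each of the 4 groups held 4 samples of total RNA from minced muscle. No transgene, induced mutation or drug is labelled in either strain. MRL is known as a strain with unusual healing of some wounds, and the design asks whether the 2 strains respond differently to a rotator cuff tear. The sample labels name the supraspinatus and the series description the infraspinatus, so the tissue is called rotator cuff muscle. Age, sex and the time from surgery to collection were not used here. The labels do not say whether the samples of a group came from separate animals, so p-values measure the spread between these samples, which may in part be technical.

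Endothelial cells line every blood vessel, and in skeletal muscle most of them form the capillaries that run along the fibres. They hold together through junction proteins and take growth cues through receptor tyrosine kinases: VEGF from fibres and other cells acts through Kdr and Flt1, and angiopoietins from mural cells and from the endothelium act through Tek with Tie1. Eng, a co-receptor for BMP and TGF-beta ligands, and Aplnr, the receptor of the peptide apelin, complete the signalling receptors, while Emcn and Cd34 are sialomucins of the endothelial surface. The markers are not fully restricted to vessels. Cd34 is also carried by mesenchymal progenitors and satellite cells, and Pecam1 by platelets and some leukocytes. In bulk muscle a change in the number of endothelial cells and a change in RNA per cell cannot be told apart. Levels are also shares of all counts, so a change in the RNA of other cells moves them and cannot be told apart either.

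The sequences just upstream of the genes were searched for some of the letters that transcription factors of the ETS family can recognise. These factors act at many endothelial promoters. RefSeq promoter entries (GRCm38.p6) were found for 7 of the 10 genes. Shown are the upstream stretches of the 2 genes with the smallest and the 2 with the largest BL6 surgery effect among those 7, each 5′ to 3′ on the strand of the gene. Flt1 covers chr5:147726012-147726261 on the minus strand, Kdr chr5:75978459-75978705 on the minus strand, Cd34 chr1:194938571-194938818 on the plus strand and Emcn chr3:137340828-137341066 on the plus strand. Capitals mark the letters AGGAAG or CGGAAG, or CTTCCT or CTTCCG where the match is on the other strand.
Flt1: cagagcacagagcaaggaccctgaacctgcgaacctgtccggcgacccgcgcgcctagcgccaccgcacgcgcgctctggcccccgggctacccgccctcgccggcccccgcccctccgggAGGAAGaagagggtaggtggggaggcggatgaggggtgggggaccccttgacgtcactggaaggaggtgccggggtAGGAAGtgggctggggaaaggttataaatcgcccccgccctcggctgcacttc
Kdr: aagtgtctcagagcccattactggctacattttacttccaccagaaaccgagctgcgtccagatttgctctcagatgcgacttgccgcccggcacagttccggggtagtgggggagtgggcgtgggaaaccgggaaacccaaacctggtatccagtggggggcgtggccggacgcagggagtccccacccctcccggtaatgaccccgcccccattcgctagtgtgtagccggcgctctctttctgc
Cd34: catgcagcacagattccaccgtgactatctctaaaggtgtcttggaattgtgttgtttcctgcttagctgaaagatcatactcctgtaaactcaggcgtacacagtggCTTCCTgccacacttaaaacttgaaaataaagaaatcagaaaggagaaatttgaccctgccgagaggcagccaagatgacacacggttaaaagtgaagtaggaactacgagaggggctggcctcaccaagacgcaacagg
Emcn: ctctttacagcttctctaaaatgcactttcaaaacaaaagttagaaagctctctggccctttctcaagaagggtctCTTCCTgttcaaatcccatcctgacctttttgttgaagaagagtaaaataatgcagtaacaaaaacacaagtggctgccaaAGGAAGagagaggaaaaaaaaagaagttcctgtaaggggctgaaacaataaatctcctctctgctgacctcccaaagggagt
Flt1 and Emcn held 2 matches each in the 250 bases upstream of the start, Cd34 1 and Kdr 0. Over the 7 genes with an entry, 5 held a match, against 39.2% of all 32851 entries of the table. Other letters that these factors may recognise were not searched for, so a window without a match may still hold a site. The matches describe these windows only, and nothing about a factor is drawn from them.

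Levels are given in CPM, counts scaled to a library of 1000000 with factors from the trimmed mean of M values (TMM). Total counts ranged from 24323862 to 43552964 per sample, so that 3 counts, taken as the floor, stood at 0.0689 to 0.123 CPM. The lowest count of any of the 10 genes in any sample was 204. Surgery effects are log2 fold changes with their SE and adjusted p from edgeR's quasi-likelihood test with Benjamini-Hochberg adjustment over 11709 genes, and the threshold for a call was an adjusted p of 0.05.

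A single library stood apart in these genes. Replicate 4 of operated MRL was the lowest of its group in 10 of 10 genes, while over all genes it was the lowest in 32.6%. The summed CPM of the 10 genes was 620 in that library, against 1151 to 1352 in the other operated MRL samples and 460 to 609 in unoperated MRL. Its mitochondrial genes took 11.8% of counts, within the 10.97% to 14.2% of the unoperated samples of both strains, and below the other operated samples, at 17.4% to 24.9%. Its adipocyte genes summed to 481 CPM, above 137 to 213 CPM in the other operated MRL samples. Results in MRL are therefore given with and without it. Replicate 4 of operated BL6 and replicate 1 of unoperated MRL also differed from their groups, in lists of other cell types given below.

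**Figure D1:**
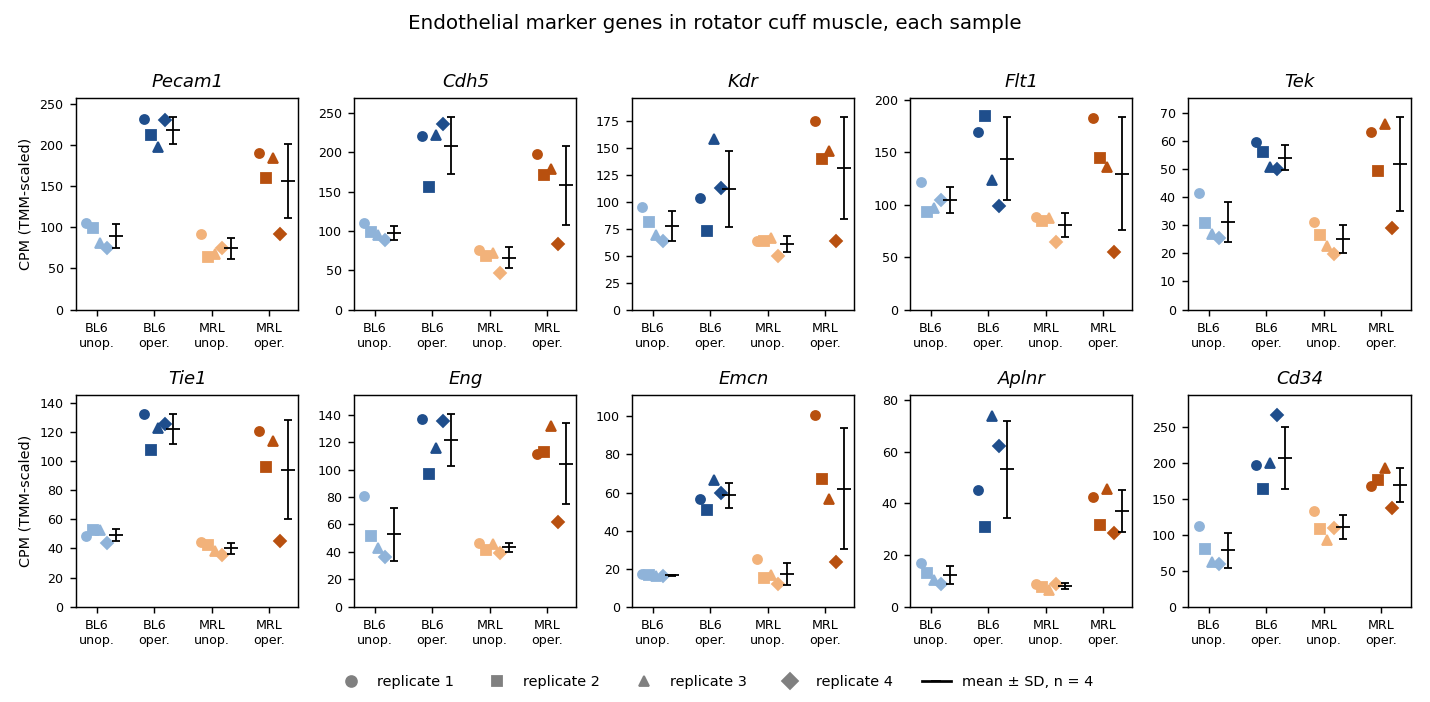
CPM (TMM-scaled) of the 10 endothelial marker genes in each of the 16 samples, by strain and surgery; symbols mark the replicate number, and black bars give the mean ± SD of 4 samples. Every operated BL6 sample lies above every unoperated BL6 sample except in Kdr and Flt1, and the operated MRL diamond (replicate 4) lies lowest of its group in each panel.

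After surgery 8 of the 10 genes rose in BL6 and 9 of 10 in MRL, and 8 of them rose in both strains. None fell in either strain. Over all genes tested, 35.1% were called higher and 32.8% lower in BL6, and 22.3% higher and 22.7% lower in MRL. The median log2 fold change of the 10 genes was 1.24 in BL6 and 1.17 in MRL, against 0.04 and 0.01 over all genes. In BL6 the operated samples lay wholly above the unoperated ones in 8 of 10 genes (27.5% of all genes), and in MRL in 5 of 10 (17% of all genes). Without replicate 4 of operated MRL, each of the 10 genes was called in MRL and had operated samples wholly above unoperated ones, with a median of 1.40, where 24.6% of all genes were called higher and 28.2% did not overlap in that direction. That library was left out after it had been seen to be low in these same genes. Surgery in the 2 strains was compared within each strain, so these effects share no samples, although they share 1 estimate of the spread.

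**Figure D2:**
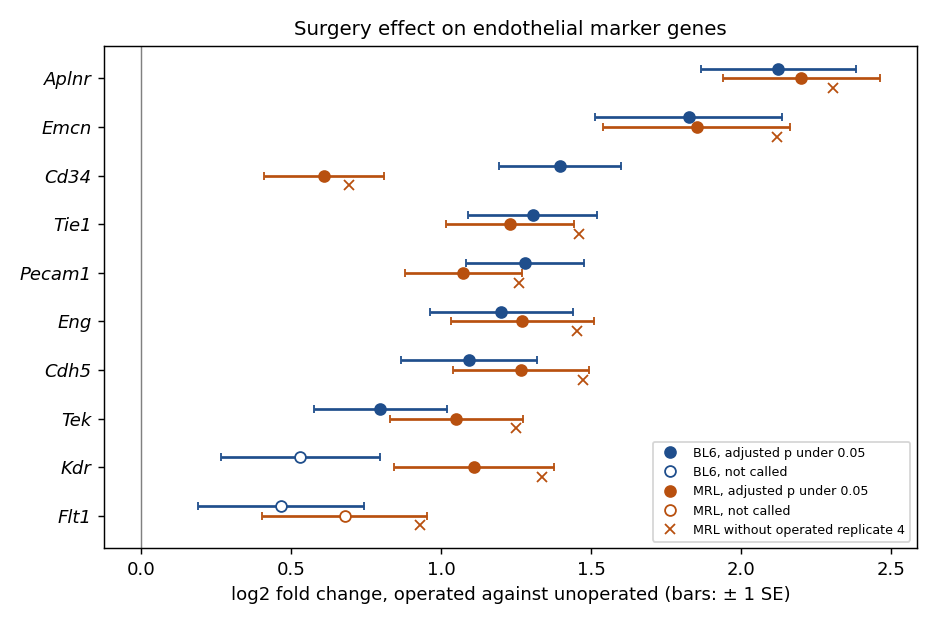
Log2 fold change of each endothelial marker gene, operated against unoperated, in BL6 (blue) and MRL (orange); bars are ± 1 SE, filled circles passed an adjusted p of 0.05 and crosses give MRL without operated replicate 4. Aplnr and Emcn lie furthest right in both strains, Flt1 lies lowest in BL6, and Cd34 shows the widest gap between the circles of the strains, 1.40 against 0.61.

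Cdh5 and Pecam1 act at junctions and cell contacts, and both rose in both strains. Cdh5 codes for VE-cadherin, the cadherin of endothelial adherens junctions (chr8:104101625-104144511, plus strand, 13 exon blocks). It stood at 109.7, 98.6, 94.7 and 88.4 CPM in replicates 1 to 4 of unoperated BL6 and at 221, 156, 222 and 236 CPM after surgery. The MRL samples held 75.9, 68.2, 72.2 and 46.3 CPM unoperated and 198, 172, 178 and 83.8 CPM operated. Operated samples were above all unoperated samples of their strain, although replicate 4 of operated MRL exceeded the highest unoperated value, 75.9 CPM, only narrowly. Cdh5 rose by 1.09 ± 0.23 (SE) in BL6 (edgeR, adjusted p = 0.000661), and by 1.27 ± 0.23 in MRL, with 0.00133.

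Pecam1 codes for a homophilic adhesion protein at endothelial cell contacts (chr11:106654217-106750628, minus strand, 17 exon blocks). Its BL6 levels were 104.7, 99.4, 80.6 and 74.3 CPM unoperated and 231, 212, 197 and 231 CPM operated. In MRL they were 91.9, 63.9, 66.8 and 74.4 CPM unoperated and 189.7, 160.1, 184 and 91.5 CPM operated. The groups were fully apart in BL6. In MRL the low operated replicate 4 fell just under the highest unoperated sample, while the other 3 operated samples were well above. The log2 fold change was 1.28 ± 0.20 (SE) in BL6, adjusted p = 7.85e-05, and 1.07 ± 0.20 in MRL, adjusted p = 0.00147, both in edgeR's test.

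The VEGF receptors were the genes not called in BL6, and of them Kdr was called in MRL. Kdr, the main signalling receptor for VEGF-A (chr5:75932827-75978458, minus strand, 29 exon blocks), stood at 94.9, 81.7, 69.7 and 63.7 CPM in unoperated BL6. After surgery the BL6 samples held 103, 72.6, 159 and 113 CPM, so replicate 2 remained within the unoperated range. In MRL the levels were 63.8, 63.3, 66.6 and 50.1 CPM unoperated and 175, 140.2, 147 and 63.8 CPM operated. Replicates 1 to 3 of operated MRL were far above the controls, and replicate 4 lay among the controls. Kdr was not called in BL6, at 0.53 ± 0.26 (SE) (edgeR, adjusted p = 0.0858), and rose in MRL by 1.11 ± 0.27, with 0.00534. The difference between the strains' effects was 0.58 ± 0.37 (edgeR, adjusted p = 0.437), so the strains were not shown to differ. The BL6 result depended on single libraries: without replicate 2 of operated BL6 the value was 0.69 (edgeR, adjusted p = 0.0284). Replicate 4 of operated MRL is not in the BL6 comparison but shares its fit. Without that library the value stayed at 0.53, and only the adjusted p changed, to 0.0240 in edgeR's test. Without replicate 3 of operated BL6 the value was 0.31 (edgeR, adjusted p = 0.308).

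Flt1 binds VEGF-A tightly but signals weakly, and its soluble form traps the ligand (chr5:147561604-147726011, minus strand, 33 exon blocks). Unoperated BL6 held 121, 93.2, 97.3 and 105 CPM and operated BL6 169, 184, 124 and 98.6 CPM. Unoperated MRL held 87.9, 84.6, 87.6 and 64.1 CPM and operated MRL 183, 145, 136 and 55.0 CPM. The groups overlapped in both strains, through replicate 4 of each operated group. The log2 fold change was 0.47 ± 0.28 (SE) in BL6, adjusted p = 0.143, and 0.68 ± 0.28 in MRL, adjusted p = 0.0562, in edgeR's test. Flt1 was thus called in neither strain. In MRL it passed without replicate 4 of operated MRL (0.93, adjusted p = 0.00121), without replicate 4 of operated BL6 (0.68, 0.0410) and with DESeq2 (0.67, 0.0382). The BL6 value passed without replicate 4 of operated MRL (0.47, edgeR adjusted p = 0.0307). Where the library left out was of the other strain, the log2 fold change stayed at 0.47 in BL6 and 0.68 in MRL, and only the adjusted p changed. Single libraries also lowered the log2 fold change, to 0.47 in MRL without replicate 1 of operated MRL (edgeR, adjusted p = 0.196) and to 0.33 in BL6 without replicate 2 of operated BL6 (0.327).

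Of the angiopoietin receptors, Tek binds the angiopoietins themselves (chr4:94739289-94874976, plus strand, 23 exon blocks). BL6 samples held 41.5, 30.8, 26.98 and 25.5 CPM unoperated and 59.8, 56.3, 50.9 and 50.01 CPM operated. MRL samples held 31.3, 26.5, 22.6 and 19.9 CPM unoperated and 63.3, 49.4, 66.1 and 29.0 CPM operated, again with replicate 4 within the control range and the other 3 above it. Tek rose by 0.80 ± 0.22 (SE) in BL6, adjusted p = 0.00513, and by 1.05 ± 0.22 in MRL, adjusted p = 0.00294, in edgeR's test.

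Tie1 has no clear ligand of its own and pairs with Tek (chr4:118471191-118490061, minus strand, 22 exon blocks). It stood at 48.2, 52.7, 52.8 and 44.03 CPM in unoperated BL6 and at 132, 108, 122 and 126 CPM after surgery. The MRL levels were 44.5, 42.1, 38.1 and 35.6 CPM unoperated and 120.4, 96.2, 114 and 45.4 CPM operated. Operated samples were above all controls of their strain, in MRL by less than 1 CPM for replicate 4. The log2 fold change was 1.30 ± 0.21 (SE) in BL6, adjusted p = 0.000123, and 1.23 ± 0.21 in MRL, adjusted p = 0.0012, in edgeR's test. Tie1 was the member whose level followed the mean of the 10 genes most closely, with a Pearson r of 0.98 over the 16 samples, the gene itself being part of the mean, and Flt1 the least closely, with 0.75. These values describe samples that share groups and carry no test.

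Eng codes for endoglin (chr2:32646595-32682669, plus strand, 14 exon blocks). Unoperated BL6 held 80.4, 51.3, 43.2 and 36.5 CPM and operated BL6 137, 97.0, 116 and 136 CPM. Unoperated MRL held 46.5, 41.7, 46.0 and 39.1 CPM and operated MRL 112, 113, 132 and 62.0 CPM. The groups did not overlap in either strain. Eng rose by 1.20 ± 0.24 (SE) in BL6, adjusted p = 0.000484, and by 1.27 ± 0.24 in MRL, adjusted p = 0.00169, in edgeR's test. Its exons share 61 of 4048 bases with those of Fpgs on the other strand, and the use of strand in counting is not given in the sources used here.

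Aplnr, a G protein-coupled receptor of sprouting and venous endothelium with a single exon block (chr2:85136225-85139923, plus strand), showed the largest change of the set. BL6 samples held 16.8, 12.9, 10.5 and 8.66 CPM unoperated and 45.2, 31.1, 74.1 and 62.3 CPM operated. MRL samples held 8.93, 7.69, 6.58 and 8.97 CPM unoperated and 42.4, 31.6, 45.4 and 28.5 CPM operated. The groups were fully apart in both strains, and even the low operated MRL replicate 4 was far above every control. Aplnr rose by 2.12 ± 0.26 (SE) in BL6, a 4.36-fold change (edgeR, adjusted p = 1.94e-05). In MRL it rose by 2.20 ± 0.26, 4.59-fold at adjusted p = 0.00024.

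Emcn codes for endomucin, a sialomucin of capillary and venous endothelium (chr3:137341067-137432185, plus strand, 12 exon blocks). Its levels in unoperated BL6 were nearly equal, at 17.0, 16.5, 16.3 and 16.2 CPM, and rose to 56.6, 50.7, 66.4 and 60.0 CPM. In MRL they were 24.9, 15.3, 16.5 and 11.9 CPM unoperated and 101, 66.9, 56.8 and 23.6 CPM operated. Emcn varied widely in operated MRL, where its mean was 62.0 ± 31.7 CPM (SD, n = 4), or 74.8 ± 22.9 CPM without replicate 4 (n = 3). Surgery raised Emcn by 1.82 ± 0.31 (SE) in BL6, adjusted p = 0.000161, and by 1.85 ± 0.31 in MRL, adjusted p = 0.00101, in edgeR's test.

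Cd34 (chr1:194938819-194961279, plus strand, 7 exon blocks) had the largest difference in size between the surgery effects of the strains, which did not pass the test. That rank depended on single libraries, and without replicate 4 of operated MRL Kdr had the larger difference, as given below. With replicate 1 of unoperated MRL and replicate 4 of operated BL6 both left out, the difference was 0.62 for Kdr and -0.53 for Cd34. BL6 samples held 113, 79.4, 61.8 and 59.9 CPM unoperated and 197, 164, 199 and 267 CPM operated. MRL samples held 133, 108, 92.7 and 109 CPM unoperated and 168, 177, 193 and 138 CPM operated. Operated samples were above all controls in both strains. Cd34 rose by 1.40 ± 0.20 (SE) in BL6, adjusted p = 5.29e-05, and by 0.61 ± 0.20 in MRL, adjusted p = 0.0230, in edgeR's test. The strain difference in effect was -0.79 ± 0.28, with an unadjusted p of 0.0132 and 0.223 after adjustment (edgeR). The MRL call was lost, at adjusted p of 0.0527 to 0.0721, without replicate 2, 3 or 4 of unoperated MRL or replicate 3 of operated MRL, where the log2 fold change was 0.60, 0.53, 0.60 and 0.54. With scaling by total counts alone it was 0.65 at adjusted p = 0.0665. Genes of mesenchymal progenitors, which also carry Cd34, summed to 3761 CPM in replicate 4 of operated BL6, the library with the highest Cd34, against 833 to 1293 CPM in the other operated BL6 samples. Without that library Cd34 rose by 1.24 in BL6 and was still called. In operated MRL the mesenchymal sum was 2281 CPM in replicate 3, the highest in Cd34, and 2007 CPM in replicate 4, the lowest in Cd34. It was 1257 and 1279 CPM in replicates 1 and 2. Whether these cells bear on the level of Cd34 was not tested. Cd34 overlaps an antisense gene, Gm16897, in 148 of 7290 exon bases, and the use of strand is not given in the sources used here.

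To compare levels between genes, CPM was divided by the length of the merged exons in kilobases. In unoperated BL6 the order was Cdh5 with 23.3 ± 2.13 CPM per kilobase (SD, n = 4), Pecam1 with 14.4 ± 2.34, Eng with 13.1 ± 4.78, Cd34 with 10.8 ± 3.35 and Tie1 with 10.1 ± 0.854. Kdr followed with 8.58 ± 1.53, Flt1 with 7.71 ± 0.915, Tek with 6.62 ± 1.53, Aplnr with 3.30 ± 0.955 and Emcn with 3.05 ± 0.0635 CPM per kilobase. Only the neighbours Cdh5 and Pecam1, and Tek and Aplnr, had ranges over samples that did not overlap. Cdh5 was also first in the other 3 groups, with means per kilobase of 49.6 CPM (BL6 operated), 15.6 CPM (MRL unoperated) and 37.6 CPM (MRL operated). In unoperated MRL its range, 11.03 to 18.1, overlapped that of the next gene, Cd34, at 12.7 to 18.2. Aplnr moved from the ninth place in unoperated BL6 to the sixth after surgery, at 14.4 ± 5.11 CPM per kilobase, and Flt1 from the seventh to the last, at 10.7 ± 2.94. Those places are close: from Aplnr down to Flt1 the ranges of neighbouring genes in operated BL6 overlapped.

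The 10 genes varied together. Over the 45 pairs of genes Pearson's r of log2 CPM over the 16 samples ran from 0.41 for Flt1 with Cd34 to 0.97 for Pecam1 with Tie1, with a median of 0.87. After the group means were removed the median was 0.72 and the lowest -0.0045, for Flt1 with Aplnr. Both sets of values include replicate 4 of operated MRL, lowest of its group in 10 of 10 genes, and none is given without it. The SD of the genes' mean log2 CPM was 0.54 in operated MRL, against 0.15 to 0.24 in the other groups. Samples share their libraries' depth and composition, and no test is attached to these values. Within groups the same libraries tended to be extreme across genes: replicate 1 of unoperated BL6 was highest in 9 of 10 (34.0% of all genes) and replicate 4 lowest in 9 (26.2%), and replicate 2 of operated BL6 was lowest in 7 (31.1%). The genes of the whole table whose log2 CPM most resembled the mean of the 10 over the 16 samples were Arhgef15 (r = 0.994), Arap3 (0.990), Ly6e (0.986), Egfl7 (0.983) and F11r (0.981). Arhgef15 went from 26.9 ± 3.37 to 66.0 ± 6.85 CPM in BL6 and from 22.1 ± 1.20 to 54.1 ± 18.5 CPM in MRL (SD, n = 4).

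No difference between the strains passed the test in these genes. Among unoperated samples 0 of 10 were called, against 10.4% of all genes, with 3 at an unadjusted p under 0.05 (Cdh5, Aplnr and Cd34; 24.3% of all genes) and a lowest adjusted p of 0.125, and DESeq2 and limma-voom also called 0. Cdh5 was 97.9 ± 8.94 CPM in BL6 and 65.7 ± 13.3 CPM in MRL (SD, n = 4), a log2 fold change of -0.58, and every MRL sample lay under every BL6 sample. Flt1 samples did not overlap either, at 104 ± 12.4 CPM in BL6 and 81.0 ± 11.4 CPM in MRL, with -0.36. Non-overlap in that direction was found in 12.9% of all genes. Aplnr had -0.60 and an adjusted p of 0.158, and Cd34, the gene furthest in the other direction, 0.50 with 0.137, in edgeR's test. With only the 2 unoperated groups in the fit, Cdh5 and Tie1 were called lower in MRL, at -0.58 and -0.30, in a fit that called 20.8% of all genes. Without replicate 1 of unoperated BL6, Cd34 was called higher (0.72, adjusted p = 0.0220), and without replicate 4 of operated MRL, Cdh5 was called lower (-0.58, 0.0242).

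Among operated samples 0 of 10 genes were called, against 12.9% of all genes, with 2 at an unadjusted p under 0.05 (Pecam1 and Aplnr; 26.7% of all genes) and 0 by DESeq2 or limma-voom. Pecam1 came closest, at 218 ± 16.2 CPM in BL6 and 156 ± 45.2 CPM in MRL (SD, n = 4), a log2 fold change of -0.48 (edgeR, adjusted p = 0.125). It was the only one of the 10 whose operated MRL samples all lay under the BL6 samples (6.16% of all genes). Without replicate 4 of operated MRL its value was -0.30 (edgeR, adjusted p = 0.235), and the median of the 10 genes went from -0.25 to -0.10. Aplnr was called lower in MRL without replicate 2 of operated BL6, at -0.71 (edgeR, adjusted p = 0.0430). The interaction, which tests the difference between the surgery effects themselves, called 0 of 10 genes (0.248% of all genes), with 1, Cd34, at an unadjusted p under 0.05 (15.7% of all genes), and DESeq2 and limma-voom called 0. Its values ran from -0.79 for Cd34 to 0.58 for Kdr, with a median of 0.07 against -0.01 over all genes. Without replicate 4 of operated MRL they ran from -0.71 for Cd34 to 0.81 for Kdr, with a median of 0.27 against -0.03, and 0 were called.

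Of 12 listed ligand names of these receptors 8 were measured genes, and 5 rose and 1 fell in BL6 while 2 rose in MRL, with medians of 0.81 and 0.20. Over all genes 35.1% were called higher and 32.8% lower in BL6, and 22.3% higher in MRL. The MRL count is near that share and is not read as a result about the ligands. Vegfa, the ligand of Kdr and Flt1, stood at 429 ± 58.0 and 572 ± 209 CPM in unoperated and operated BL6 and 537 ± 64.3 and 606 ± 86.9 CPM in MRL (SD, n = 4). Its log2 fold change was 0.42 and 0.17, and that of Vegfb, which binds Flt1, was 0.33 and 0.17, none of them called. In BL6 both passed without replicate 4 of operated BL6, Vegfa at 0.62 (edgeR, adjusted p = 0.00327) and Vegfb at 0.46 (0.00649), and Vegfb also without replicate 4 of operated MRL (0.32, 0.0495). Vegfc, a ligand of the lymphatic receptor Flt4, rose in BL6 by 0.77 and had 0.45 in MRL, not called. The Vegfc call was lost in 16 of 24 alternatives, among them without replicate 4 of operated BL6, at 0.37 (edgeR, adjusted p = 0.277). Vegfd, another ligand of Flt4, rose in BL6 by 0.84 and had 0.23 in MRL, not called. Pgf, a ligand of Flt1 alone, rose in BL6 from 2.63 ± 0.610 to 5.75 ± 1.39 CPM, by 1.13 on the log2 scale (adjusted p = 0.000566 in edgeR's test), and stood at 4.02 ± 0.701 and 4.32 ± 0.992 CPM in MRL, with 0.10. The strain difference in effect for Pgf was -1.02 (edgeR, adjusted p = 0.181). Nrp1, a co-receptor of Kdr, had 0.02 and -0.07 and was called in neither strain.

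In BL6 the angiopoietins Angpt1 and Angpt2 moved in opposite directions. Angpt1, the activating ligand of Tek made mostly by mural and other perivascular cells, held 17.3, 17.5, 14.7 and 15.6 CPM in unoperated BL6 and 8.03, 6.39, 9.38 and 10.3 CPM after surgery. In MRL it held 11.6, 13.8, 17.2 and 14.0 CPM unoperated and 12.5, 11.6, 14.98 and 24.2 CPM operated. It fell by 0.93 on the log2 scale in BL6, where the groups were fully apart (edgeR, adjusted p = 0.00124). In MRL the value was 0.17 (edgeR, adjusted p = 0.518), and without replicate 4 of operated MRL, the highest sample, it turned to -0.12 (0.568). The interaction was 1.10 ± 0.29 (SE) and did not pass (edgeR, adjusted p = 0.131), and was 0.81 without that library (0.142). Among operated samples Angpt1 was 0.89 higher in MRL (edgeR, adjusted p = 0.0099), or 0.60 higher without that library (0.0285). This call was lost in 1 of 24 alternatives, the fit of only the groups compared (edgeR, adjusted p = 0.0867).

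Angpt2, the context-dependent antagonist of Tek released by the endothelium itself, rose in both strains. It went from 2.85 ± 0.728 to 8.53 ± 3.73 CPM in BL6 and from 3.90 ± 0.724 to 11.1 ± 3.62 CPM in MRL (SD, n = 4), by 1.58 and 1.51 on the log2 scale. Ptprb, the endothelial phosphatase that restrains Tek, rose by 0.40 and 0.61, and its BL6 call was lost in 11 of 24 alternatives. Apln, the precursor of the Aplnr ligand, rose by 1.27 in BL6 and 1.31 in MRL, from 3.96 ± 1.23 to 9.49 ± 6.59 CPM and from 3.56 ± 0.404 to 8.83 ± 3.47 CPM. Replicate 4 of operated BL6 held 19.2 CPM of Apln, against 4.38 to 7.27 CPM in the other operated BL6 samples, and without it Apln was not called in BL6 (0.66, edgeR adjusted p = 0.0821). Beside Eng, the signalling receptor Acvrl1 rose by 1.25 and 0.93, whereas its type II partner Bmpr2 fell by 0.78 and 0.39. The MRL call of Bmpr2 was lost in 8 of 24 alternatives. Tgfbr2, the type II receptor of TGF-beta, had -0.10 and -0.08 and was called in neither strain, but passed in BL6 without replicate 4 of operated BL6 (-0.44, edgeR adjusted p = 0.0321).

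Over the receptor partners as a list, 7 of 10 rose and 1 fell in each strain, with medians of 0.86 in BL6 and 0.70 in MRL. The shares of all genes were 35.1% higher and 32.8% lower in BL6, and 22.3% and 22.7% in MRL. Nrp2, a co-receptor for lymphatic VEGF signalling, rose by 1.15 and 0.85. The other genes that rose in both strains were Ptprb, Acvrl1 and the Notch pathway genes Notch1, Notch4, Dll4 and Jag1.

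**Figure D3:**
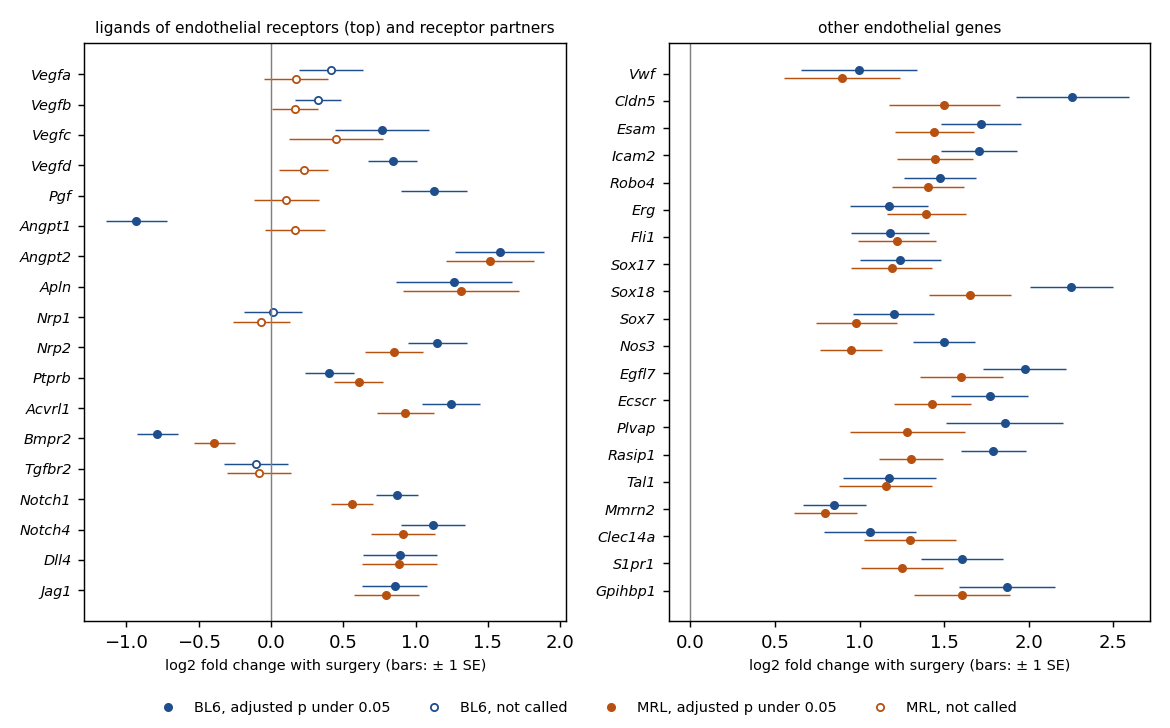
Log2 fold change after surgery in BL6 (blue) and MRL (orange) for the ligands and partners of the endothelial receptors (left) and for 20 other endothelial genes (right); bars are ± 1 SE, and open circles did not pass an adjusted p of 0.05. All 20 other endothelial genes lie right of 0 and are filled in both strains, while Vegfa, Vegfb and Nrp1 are open in both and Angpt1 lies left of 0 in BL6 alone.

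Genes of the endothelium outside the set moved the same way. All 20 of the list rose in BL6 and all 20 in MRL, against 35.1% and 22.3% of all genes, with medians of 1.55 and 1.30. Vwf, the clotting protein of endothelial storage granules, rose by 0.998 in BL6 and 0.896 in MRL. Its BL6 call was lost in 4 of 24 alternatives, among them without replicate 4 of operated BL6 (0.63, edgeR adjusted p = 0.0922), and its MRL call in 10. Cldn5, a tight junction protein, rose by 2.26 and 1.501, and Esam, an adhesion molecule of the same junctions, by 1.72 and 1.44. The summed CPM of the list ran from 334 to 406 in unoperated BL6 and from 1010 to 1266 after surgery, and from 296 to 390 and 438 to 1057 in MRL, where 438 belonged to replicate 4. This list was written with earlier results of these data known, so its direction is a description.

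Genes of mural cells, which wrap vessels, also rose: 8 of 10 in BL6 and 7 of 10 in MRL, with 1 lower in each (Abcc9) and medians of 0.99 and 0.76. Beside this list and the lymphatic one, 35.1% of all genes were called higher and 32.8% lower in BL6, and 22.3% and 22.7% in MRL. Pdgfrb, the receptor that recruits pericytes, rose by 1.10 and 0.85, Rgs5 by 0.81 and 1.15, and Cspg4 rose by 0.89 in BL6 and had 0.48 in MRL, not called. Of the lymphatic genes measured, 5 of 5 rose in BL6 and 2 of 5 in MRL. The MRL count was 3 without replicate 4 of operated MRL, where 24.6% of all genes were called higher. It was 4 with replicate 1 of unoperated MRL and replicate 4 of operated BL6 both left out, where that share was 29.1%. These libraries were chosen after the data had been seen. Lyve1 rose by 1.16 in BL6 and had 0.31 in MRL, not called, Flt4 rose by 1.12 and 0.80, and Pdpn rose by 1.36 in BL6 and had 0.56 in MRL, not called. Without replicate 4 of operated BL6 the BL6 call of Lyve1 was lost (0.74, edgeR adjusted p = 0.0558), and Cspg4 (0.49, 0.0269) and Pdpn (0.56, 0.0428) were called in MRL.

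**Figure D4:**
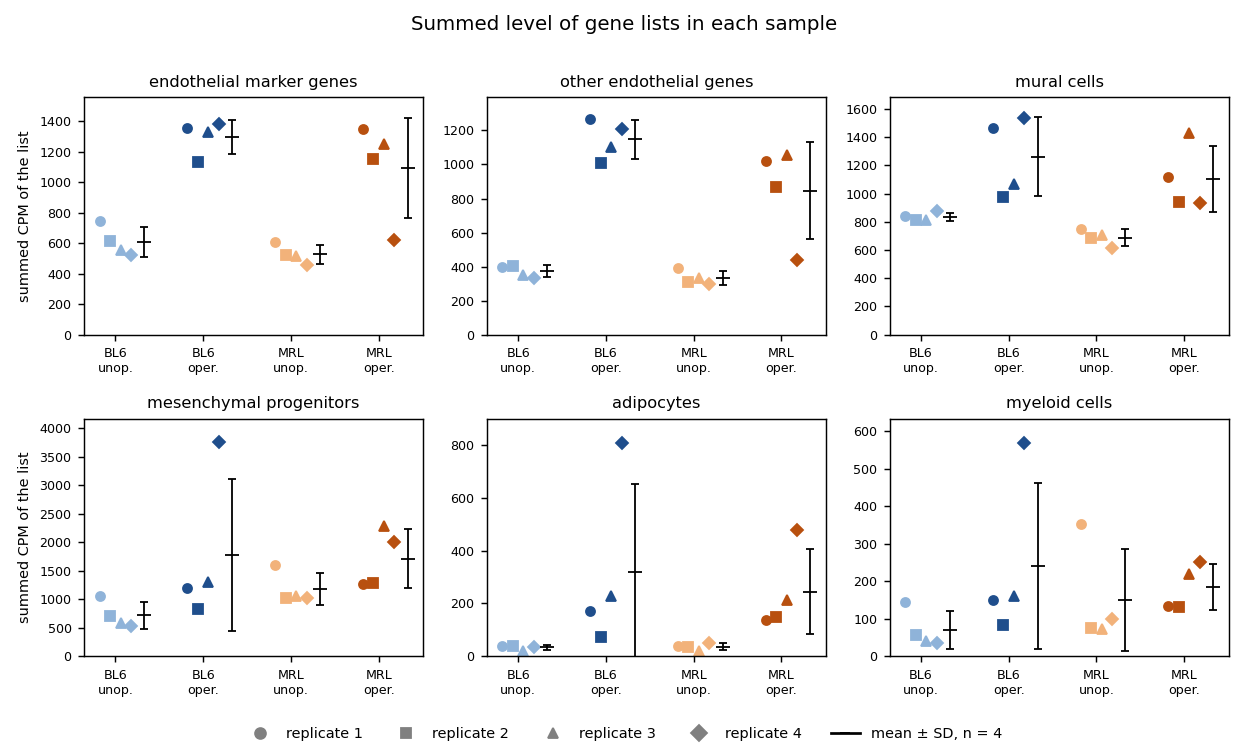
Summed CPM of 6 gene lists in each of the 16 samples, by strain and surgery; symbols mark the replicate number and black bars the mean ± SD of 4 samples, cut off at 0. The 2 endothelial lists are low in operated MRL replicate 4 (620 and 438 CPM) where the adipocyte list is high (481 CPM), and operated BL6 replicate 4 is highest in the mesenchymal, adipocyte and myeloid lists.

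Markers of other cell types moved with surgery too, and their part in the endothelial results was not tested. Muscle fibre genes summed to 129465 to 181480 CPM in unoperated BL6 and 50855 to 148247 CPM after surgery, and to 118037 to 132808 and 72223 to 96068 CPM in MRL. Of the 6 measured, 4 fell in BL6 and 3 in MRL, where 32.8% and 22.7% of all genes were called lower. Acta1, skeletal actin, fell by 0.99 and 0.76 and Ckm, muscle creatine kinase, by 0.63 and 0.60, while Myh4, a fast myosin, fell by 1.18 in BL6 and had -0.82 in MRL, not called. The Ckm call was lost in 7 of 24 alternatives in BL6 and 13 in MRL.

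Adipocyte genes rose in 5 of 5 measured in both strains, with Adipoq at 3.17 and 2.59, Plin1 at 3.25 and 2.75 and Cidec at 2.76 and 2.32, from sums of 18.1 to 47.9 CPM in unoperated samples to 73.2 to 809 CPM in operated BL6 and 137 to 481 CPM in operated MRL. Schwann cell genes rose in 6 of 6 in BL6 and 5 of 6 in MRL. Sox10, a transcription factor of these cells, rose by 1.503 in BL6 and had 0.57 in MRL, not called. Mesenchymal genes rose in 5 of 8 in BL6 and 1 of 8 in MRL. For these 3 lists the share of all genes called higher was 35.1% in BL6 and 22.3% in MRL. Surgery called 7950 genes in BL6 and 5272 in MRL, so list counts of the strains are not directly comparable. Pdgfra had 0.23 and 0.25, called in neither, Ly6a, which endothelial cells also express, rose by 1.41 and 1.02, and Dpt rose by 1.19 in BL6 and had 0.58 in MRL, not called. The MRL call of Plin1 was lost in 3 of 24 alternatives, among them without replicate 4 of operated MRL (1.56, edgeR adjusted p = 0.0930), and the BL6 call of Dpt without replicate 4 of operated BL6 (0.67, 0.0585).

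Myeloid genes rose in 4 of 7 in BL6 and 0 of 7 in MRL, against 35.1% and 22.3% of all genes called higher. Ptprc had 1.07 and 0.14, called in neither, Cd68 rose by 2.01 in BL6 and had 0.62 in MRL, and Csf1r rose by 1.87 in BL6 and had 0.62. Without replicate 1 of unoperated MRL, Ptprc was called in both strains, at 1.08 in BL6 and 1.44 in MRL. The myeloid sum was 353 CPM in replicate 1 of unoperated MRL, against 71.2 to 98.6 CPM in the other unoperated MRL samples, and 569 CPM in replicate 4 of operated BL6. With both of those libraries left out, 6 of 7 myeloid genes rose in MRL and 3 of 8 mesenchymal genes did. These libraries were left out after being seen to be high in these lists, so the higher MRL counts are no separate evidence of a rise. The endothelial marker genes were then called higher in 8 of 10 in BL6 and 10 of 10 in MRL, where 32.7% and 29.1% of all genes were called higher. Satellite cell genes were mixed: Pax7 fell by 0.69 in BL6 and had 0.21 in MRL, Myod1 fell by 0.76 and 0.57, and Sdc4 rose by 0.55 in BL6 and had 0.08 in MRL. The BL6 calls of Pax7 and Sdc4 were lost in 7 and 3 of 24 alternatives and the MRL call of Myod1 in 5, those of Pax7 and Sdc4 also without replicate 4 of operated BL6. No lymphocyte gene of the list was tested. No gene tested on any of these lists was at 0 in any sample.

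The authors' deposited table of their own comparisons also covers surgery. In the authors' deposited table Aplnr had the largest log2 fold changes of the 10 genes, 2.05 in BL6 and 2.27 in MRL, and Kdr had 0.52 with a false discovery rate of 0.112 in BL6 and 1.12 with 0.00396 in MRL. Flt1 had 0.51 with 0.122 and 0.61 with 0.0858 in the authors' deposited table. The other 8 genes had a false discovery rate of at most 0.00869 in both strains there, and Cd34 had 1.27 in BL6 and 0.73 in MRL.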

How the data were processed

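The authors deposited a table of whole-number read counts per gene for 16 samples of mouse rotator cuff muscle, not normalized as far as its values show. A second deposited table gives the authors' log2 fold changes, p-values and false discovery rates for 4 comparisons, per the file headers. The submitters' processing notes name FastQC, STAR, edgeR and the mm10 build, without versions or roles, and the counting program and its use of strand are not given in the sources used here. A table of 11710 genes may already have been filtered, which would leave out genes of low level.

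Groups came from the labelled strain and surgery, and replicate numbers from the sample titles. R 4.3.3 with edgeR 4.0.16 was used. TMM factors scaled the counts, filterByExpr (minimum count 10) kept 11709 genes and removed 1, and all 16 samples entered 1 quasi-likelihood fit whose design had a mean for each group. The comparisons were read from it: surgery in each strain, the interaction, and strain within each surgery state. P-values were adjusted by Benjamini-Hochberg over all genes tested. The SE is the log2 fold change divided by the square root of the F statistic. Log2 CPM used a prior count of 2. DESeq2 1.42.0, limma-voom (limma 3.58.1), other scalings, no filter, a replicate block, fits of only the groups compared and each sample left out served as alternatives. A library left out also bears on comparisons that do not use its group, through the shared scaling and estimate of the spread. Leaving out replicate 4 of operated MRL for the list counts was chosen after seeing the data. So was leaving out replicate 1 of unoperated MRL together with replicate 4 of operated BL6. The scripts were tested on simulated data. Floors cover counting error only, because PCR copies were not marked and reads need not be separate molecules. No pair of replicates agreed within sampling noise, with a chi-square per gene of at least 14.8.

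Coordinates, exon lengths and symbols are from GENCODE M21 (GRCm38, 1-based), where 11708 IDs were found. In the promoter windows of 250 upstream bases, bases inside the gene's own annotated bounds were left off.

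The members and lists were chosen with earlier results of these data known. Named are all 10 members, their ligands and partners, the first 3 measured genes of each list (some genes of the Schwann cell list are not reported here) and the 5 genes most like the members' mean; Abcc9, Notch1, Notch4, Dll4, Jag1, Gm16897 and Fpgs were named after their values or positions were seen.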

Additional observations from a re-analysis of the deposited data

Results flagged for a closer look

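One value stood far from its group. Flt1 in replicate 4 of unoperated MRL was 64.1 CPM, while the other 3 unoperated MRL samples held 84.6 to 87.9 CPM, so that the gap to the nearest sample exceeded Dixon's critical value for 4 samples, as a share of the group's whole range. The 10 genes in 4 groups gave 40 such sets, of which 1 was marked, and about 1 in 20 is marked by chance alone.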

How the results depend on the processing

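The 8 BL6 and 9 MRL rises kept their direction under every alternative run, and no call among them was lost except that of Cd34 in MRL, given with the single libraries above. The number of members called higher ran from 8 to 10 on leaving out each sample, in BL6 and in MRL. Over all genes the interaction called 29 genes, against 14 with total counts alone, 250 with DESeq2 and 2 with the replicate block, and 1 to 69 on leaving out each sample. The MRL surgery count of 5272 genes ran from 3490, without replicate 3 of operated MRL, to 6145. With only the groups compared, the strain comparison called 2438 genes and 2 members lower among unoperated samples and 575 genes among operated ones, where the fit uses 8 samples. On leaving out each sample, 0 to 1 members were called lower in each strain comparison and 0 to 1 higher among unoperated samples. Among the 10 genes signs turned only in strain differences that were not called, and the cause was not tested. The interaction became -0.0288 for Eng, -0.108 for Emcn and -0.0466 for Aplnr with total counts alone, -0.00805 for Eng and -0.0578 for Emcn with limma-voom, -0.00504 for Eng and -0.0297 for Emcn with the replicate block, and 0.00235 for Tie1 without replicate 1 of unoperated MRL and replicate 4 of operated BL6. On leaving out each sample it ran from -0.0019 to 0.46 for Flt1, -0.22 to 0.15 for Tie1, -0.21 to 0.25 for Eng, -0.31 to 0.29 for Emcn and -0.11 to 0.28 for Aplnr. The strain difference of Emcn became -0.00249 with limma-voom, -0.00758 with the replicate block and -0.19 without both libraries among unoperated samples, and -0.0602 and -0.0373 with limma-voom and the block among operated ones; leaving out each sample it ran from -0.19 to 0.19 and from -0.25 to 0.34. Among operated samples Flt1 ran from -0.36 to 0.10 and Tek from -0.20 to 0.13. Total-count scaling moved the median of all genes from 0.04 to 0.18 in BL6 and from 0.01 to 0.15 between unoperated strains, and the share of calls that were higher from 48.4% to 70.3% in the strain comparison of unoperated samples and, among operated samples, from 59.1% to 72.2%. Of the same-numbered samples in different groups, 12 of 24 pairs correlated above 0.1 and 7 of 24 matched best. Their mean r was 0.04, against -0.01 for pairs of different numbers. The labels do not say that the numbers pair samples, and whether they do was not tested. With the replicate block Flt1 was called in MRL, at 0.60 (edgeR, adjusted p = 0.0398), and no other member's call changed. Flt1 was also called in MRL with total counts alone (0.71, 0.0346) and without both libraries (0.72, 0.0471). Of 130 surgery calls in genes of the other lists, 26 were lost in some alternative and 0 turned sign, while 14 of their 46 surgery effects that were not called turned sign in some alternative. Depth did not limit these genes, whose lowest count was 204.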

Other observations

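The ratio of Kdr to Flt1 CPM, looked at after the values had been seen and so given with no test, was 0.725 to 0.783 in unoperated MRL and 0.956 to 1.16 in operated MRL, with replicate 4 the highest, at 1.16, and the other 3 at 0.956 to 1.085. In BL6 it was 0.609 to 0.876 unoperated and 0.394 to 1.28 operated, where replicates 1 and 2 lay at 0.611 and 0.394 and replicates 3 and 4 at 1.28 and 1.15.

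Strain differences among operated samples were called in the wider lists for Bmpr2, 0.47 higher in MRL, and for Notch1, Sox18 and Sox10, with log2 fold changes of -0.47, -0.76 and -1.18. These names were picked because they were called. They were 1 higher and 1 lower of 10 receptor partners, 1 of 20 other endothelial genes and 1 of 6 Schwann cell genes. Angpt1, given above, was 1 of 8 ligands, and no gene of the other lists was called. Over all genes 12.9% were called, so these counts are not read as a result about the lists. The calls of Bmpr2, Notch1, Sox18 and Sox10 were lost in 11, 15, 14 and 7 of 24 alternatives in that order. Each was lost without replicate 4 of operated MRL, where the log2 fold changes were 0.41, -0.35, -0.59 and -1.05 (edgeR, adjusted p = 0.0942, 0.0922, 0.104 and 0.0738). Sox18, a transcription factor of endothelial development, rose with surgery from 8.504 ± 2.49 to 40.5 ± 7.98 CPM in BL6 and from 7.63 ± 1.32 to 24.02 ± 7.12 CPM in MRL (SD, n = 4).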
